A study of Rattus norvegicus with 105 samples.

Results

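The secreted frizzled-related genes Sfrp1, Sfrp2, Sfrp4, Sfrp5 and Frzb were followed in rat gastrocnemius, the large calf muscle, for up to 12 months after metal pellets had been implanted in it. The 5 genes were taken by symbol from the array annotation, and each was measured by 1 probe set of the 22954 tested. They were picked with their levels in the 35 groups and their differences from tantalum and from 1 month already known. Those values are therefore given below as a description, without p-values of single differences. Where the differences of the 5 genes past a threshold are counted, nothing is read from the count. Every group held 3 Affymetrix arrays of the type Clariom S Rat, and an array received 250 ng of pooled RNA from 2 to 3 animals. The groups were male Sprague-Dawley rats, bought at an age of about 30 days, that carried 4 pellets of 1 metal, 2 in each limb. The pellets were nickel, copper, cobalt, lead, tungsten, depleted uranium, aluminum or iron, or tantalum as the implanted surgical control, and muscle was taken at 1, 3, 6 and 12 months. Nickel at 12 months was not analysed here. Every group, tantalum included, had surgery and a foreign body, so no comparison below is with muscle that held no pellet. How near to a pellet the RNA was taken is not given in the sources used here. All 8 muscle fibre markers looked at were bright on every array, with mean levels from 12.6 for Myh7 to 14.0 for Acta1 (log2 intensity).

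Wnt proteins are secreted lipid-modified ligands that act through Frizzled receptors with the co-receptors Lrp5 and Lrp6. Secreted frizzled-related proteins carry a cysteine-rich domain that resembles the Wnt-binding domain of Frizzled, and they bind Wnt ligands outside the cell. They are classed as Wnt antagonists, although some are known to enhance Wnt signalling in certain settings. Sfrp1, Sfrp2 and Sfrp5 are closely related to each other in sequence, while Frzb, also called sFRP3, and Sfrp4 form another branch of the family. In skeletal muscle the fibroblasts and fibro-adipogenic cells between the fibres are known sources of Sfrp2 and Sfrp4. Sfrp2 is also known in mice to bind and enhance Bmp1, the protease that removes the C-terminal propeptide of fibrillar procollagens. Sfrp5 is known from mouse adipose tissue as an antagonist of Wnt5a.

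The RefSeq promoter table for the rat assembly GRCr8 held 3 of the 5 genes, Sfrp2, Frzb and Sfrp5. The 250 bases before the start of the member with the widest range of levels, Sfrp2, and of the member with the narrowest, Frzb, are shown so that both can be set beside the values. The Sfrp2 stretch lies on the plus strand at chr2:171387286-171387535 and the Frzb stretch on the minus strand at chr3:85772097-85772346. Capitals mark every match to the motifs searched.
Sfrp2: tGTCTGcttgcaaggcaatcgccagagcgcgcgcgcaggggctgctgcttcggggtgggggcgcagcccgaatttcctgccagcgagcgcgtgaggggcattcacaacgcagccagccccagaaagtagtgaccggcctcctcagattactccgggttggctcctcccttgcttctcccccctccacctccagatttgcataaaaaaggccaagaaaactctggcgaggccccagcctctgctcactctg
Frzb: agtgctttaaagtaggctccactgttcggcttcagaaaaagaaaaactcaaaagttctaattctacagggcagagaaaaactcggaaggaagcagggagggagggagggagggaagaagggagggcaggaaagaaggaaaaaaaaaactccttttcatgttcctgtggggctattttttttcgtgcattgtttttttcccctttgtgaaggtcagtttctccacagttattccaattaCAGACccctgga
The motifs, searched on both strands, were the TCF/LEF core CTTTGA, the AP-1 site TGANTCA, the E-box CANNTG, the SMAD box CAGAC, the GC box GGGCGG and the TATA box TATAAA. The capitals in both stretches are SMAD boxes. The match in Sfrp2 begins 249 bases before the start, and the match in Frzb begins 12 bases before it. The same search in Sfrp5 gave an E-box 218 bases and SMAD boxes 101 and 14 bases before the start. A SMAD box occurs in 42.9% of the 33469 promoters of the table, and an E-box in 65.5%. None of the 3 held the TCF/LEF core, which 13.9% of all promoters hold, nor the AP-1 site, the GC box or the TATA box, held by 6.34%, 30.5% and 12.9%. Sfrp2 and Sfrp5 were richer in G and C than the median promoter, at 62.4% and 58% against 51.2%, and Frzb was poorer, at 43.6%.

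Sfrp2 and Sfrp4 varied widely between the groups, and the other 3 genes did so far less. The group means of Sfrp2 ran from 5.91 with tungsten at 12 months to 9.32 with nickel at 3 months, a range of 3.41 on the log2 scale or 10.6-fold. Those of Sfrp4 ran from 6.98 with tungsten at 12 months to 9.49 with copper at 1 month, a range of 2.51 or 5.69-fold. Both ranges were far above the median range over all probe sets, 0.60, and stood at its 99.8th and 99.4th percentiles. The ranges of Sfrp1, Sfrp5 and Frzb were 0.80, 0.77 and 0.54, at the 80.4th, 77.5th and 36.6th percentiles. The pooled standard deviation within groups was 0.44 for Sfrp2 and 0.43 for Sfrp4, 0.24 for Sfrp1, 0.29 for Sfrp5 and 0.27 for Frzb, against a median of 0.20 over all probe sets. When the 35 group means of a gene were put in order, neighbours mostly lay closer together than the standard deviations of their arrays. For Sfrp2, 1 of the 34 gaps exceeded the larger standard deviation of its 2 groups: nickel at 1 month stood 0.64 above tungsten at 1 month. For each of the other 4 genes no gap did.

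Sfrp1, Sfrp2, Sfrp4 and Sfrp5 lay above the median of the control probe sets on every array. Frzb did so on 104 arrays, but its median over the arrays was 4.73, below the level of 5.45 under which the dimmest 30% of probe sets fall. Frzb thus lay near the floor of the measurement. The control medians lay between 3.85 and 4.35. In RNA from whole muscle, fewer cells that express a gene and less of its RNA per cell cannot be told apart.

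**Figure D1:**
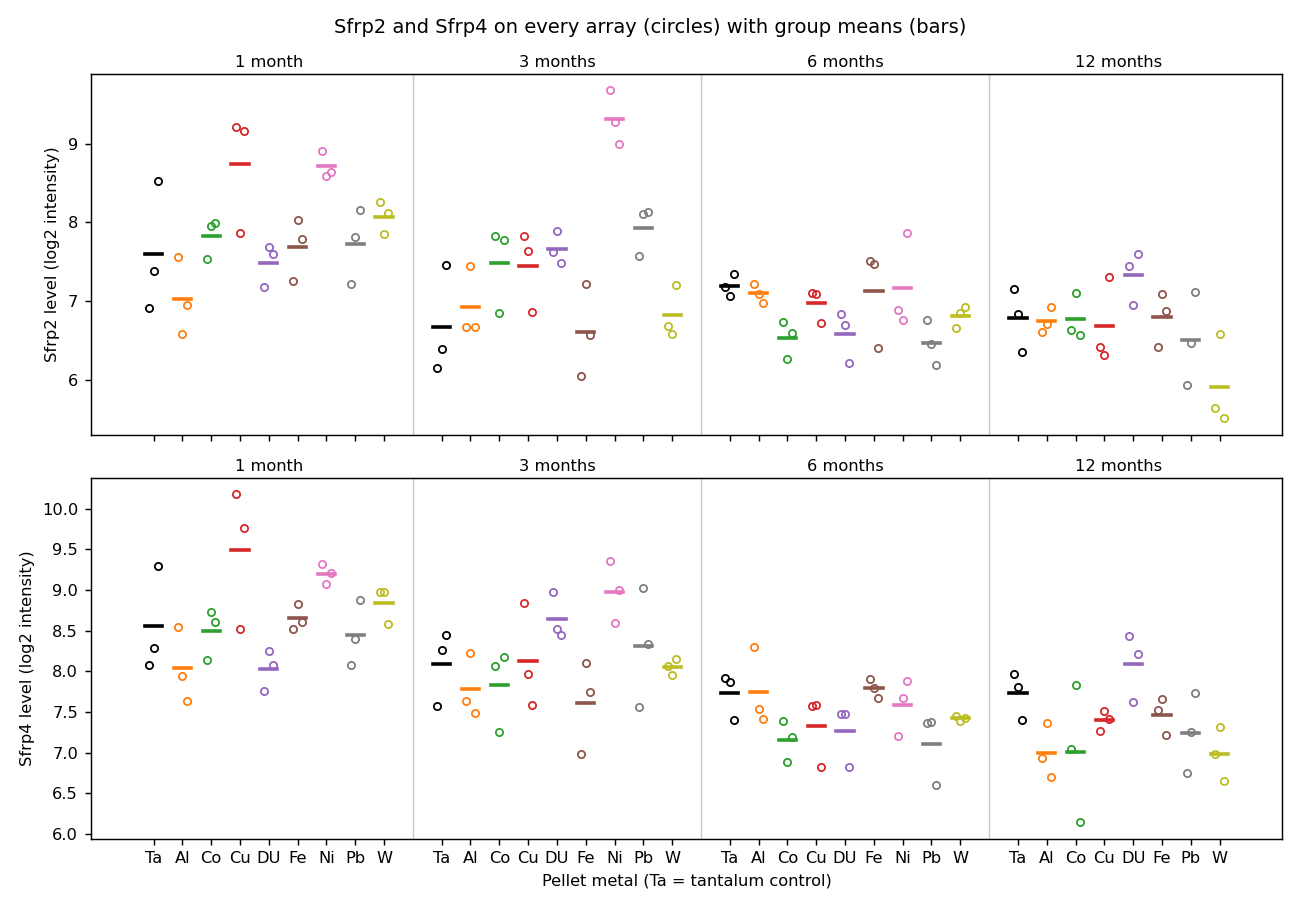
Log2 intensity of Sfrp2 (top) and Sfrp4 (bottom) on every array, by pellet metal and months after implantation, with 3 circles (arrays) and 1 bar (group mean) per group. The 3 nickel arrays at 3 months, 9.68, 9.28 and 9.00 for Sfrp2, stand above all other arrays of that month, and both genes are lower at 6 and 12 months than at 1 month in most metals.

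At 1 month Sfrp2 was highest with copper and nickel and lowest with aluminum. Its mean level was 7.60 ± 0.83 with tantalum (mean ± SD, n = 3 arrays here and for every group level below), and 7.03 ± 0.50 with aluminum, 7.83 ± 0.26 with cobalt, 8.74 ± 0.76 with copper, 7.49 ± 0.27 with depleted uranium, 7.69 ± 0.39 with iron, 8.71 ± 0.17 with nickel, 7.73 ± 0.48 with lead and 8.07 ± 0.21 with tungsten. The 3 copper arrays read 9.21, 7.86 and 9.16, and the 3 tantalum arrays 6.91, 7.38 and 8.52. Copper replicate 2 and tantalum replicate 3 were thus each about as far from their own group as the groups were from each other, and the arrays overlapped. The nickel arrays read 8.91, 8.59 and 8.64 and lay above all 3 tantalum arrays. Relative to tantalum, Sfrp2 differed by 1.14 ± 0.34 with copper and by 1.11 ± 0.34 with nickel (log2 difference ± SE from the limma fit here and below).

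Sfrp4 had the same leading groups at 1 month. It stood at 8.55 ± 0.66 with tantalum, and at 8.04 ± 0.46 with aluminum, 8.49 ± 0.31 with cobalt, 9.49 ± 0.86 with copper, 8.03 ± 0.25 with depleted uranium, 8.65 ± 0.15 with iron, 9.20 ± 0.12 with nickel, 8.45 ± 0.40 with lead and 8.84 ± 0.22 with tungsten. The copper arrays read 10.17, 8.52 and 9.76 and the tantalum arrays 8.07, 8.28 and 9.30, with the same pair of arrays standing apart as for Sfrp2. The differences from tantalum were 0.94 ± 0.34 with copper, 0.65 ± 0.34 with nickel and -0.52 ± 0.34 with depleted uranium, the lowest. In each of these 3 comparisons the arrays of the metal overlapped those of tantalum.

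At 3 months nickel stood apart. Sfrp2 read 9.68, 9.28 and 9.00 on the nickel arrays and 6.16, 6.39 and 7.45 on the tantalum arrays, a difference of 2.65 ± 0.34 or 6.28-fold. The groups did not overlap: the lowest nickel array lay well above the highest tantalum array. The means of the other metals were 6.93 ± 0.45 with aluminum, 7.48 ± 0.55 with cobalt, 7.44 ± 0.51 with copper, 7.67 ± 0.21 with depleted uranium, 6.61 ± 0.58 with iron, 7.93 ± 0.31 with lead and 6.82 ± 0.34 with tungsten, against 6.67 ± 0.69 with tantalum. Lead and depleted uranium also lay wholly above tantalum, by 1.26 ± 0.34 and 1.00 ± 0.34, while cobalt, 0.82 above it, and copper, 0.77 above it, overlapped it.

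Sfrp4 was also highest with nickel at 3 months, but by less. The nickel arrays read 9.35, 8.59 and 9.00 against 7.57, 8.27 and 8.45 with tantalum, a difference of 0.89 ± 0.34, with no overlap. The difference of Sfrp2 from tantalum exceeded that of Sfrp4 by 1.77. Of all 35 groups, nickel at 3 months had the highest mean of Sfrp2 minus Sfrp4, 0.34, and tantalum at 3 months the lowest, -1.43. The other metals of that month also exceeded tantalum in it, by 0.19 (tungsten) to 1.08 (cobalt), in comparisons that share the 3 tantalum arrays. The other metals stood at 7.78 ± 0.39 with aluminum, 7.83 ± 0.50 with cobalt, 8.13 ± 0.65 with copper, 8.64 ± 0.28 with depleted uranium, 7.61 ± 0.57 with iron, 8.30 ± 0.73 with lead and 8.06 ± 0.10 with tungsten, with tantalum at 8.09 ± 0.47. Sfrp1 had its highest mean of all 35 groups in the same nickel muscle, 6.52 ± 0.36 against 6.13 ± 0.13 with tantalum, and the difference of 0.39 ± 0.19 came with overlapping arrays. Sfrp5 and Frzb differed from tantalum there by -0.07 ± 0.23 and -0.01 ± 0.22.

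By 6 months the groups had drawn together, and tantalum had the highest Sfrp2 mean, 7.20 ± 0.14. The other means were 7.10 ± 0.12 with aluminum, 6.53 ± 0.24 with cobalt, 6.98 ± 0.22 with copper, 6.58 ± 0.33 with depleted uranium, 7.13 ± 0.63 with iron, 7.17 ± 0.61 with nickel, 6.47 ± 0.28 with lead and 6.81 ± 0.13 with tungsten. All 8 metals were thus below tantalum, with no overlap for cobalt, depleted uranium, lead and tungsten. These 8 comparisons share the same 3 tantalum arrays, so they are not 8 independent results. Sfrp4 stood at 7.73 ± 0.29 with tantalum and at 7.75 ± 0.48 with aluminum, 7.15 ± 0.25 with cobalt, 7.33 ± 0.44 with copper, 7.26 ± 0.37 with depleted uranium, 7.79 ± 0.11 with iron, 7.59 ± 0.35 with nickel, 7.11 ± 0.44 with lead and 7.42 ± 0.03 with tungsten. It was below tantalum in 6 of the 8 metals, most with lead at -0.62 ± 0.34.

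At 12 months the lowest levels of both genes were found with tungsten and the highest with depleted uranium. Sfrp2 read 5.64, 6.59 and 5.51 on the tungsten arrays and 7.45, 6.96 and 7.60 on the depleted uranium arrays, and these 2 groups did not overlap. The means were 6.78 ± 0.40 with tantalum and 6.75 ± 0.16 with aluminum, 6.77 ± 0.29 with cobalt, 6.68 ± 0.55 with copper, 7.33 ± 0.34 with depleted uranium, 6.80 ± 0.34 with iron, 6.50 ± 0.59 with lead and 5.91 ± 0.59 with tungsten. For Sfrp4 they were 7.73 ± 0.29 with tantalum and 7.0 ± 0.34 with aluminum, 7.01 ± 0.84 with cobalt, 7.39 ± 0.13 with copper, 8.09 ± 0.42 with depleted uranium, 7.47 ± 0.23 with iron, 7.24 ± 0.50 with lead and 6.98 ± 0.33 with tungsten. Relative to tantalum, tungsten differed by -0.87 ± 0.34 for Sfrp2, with overlap, and by -0.75 ± 0.34 for Sfrp4, without.

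Sfrp1, Sfrp5 and Frzb moved little between metals. Sfrp1 group means ran from 5.72 with lead at 6 months to 6.52 with nickel at 3 months, and the median array of a month stood at 6.09, 6.20, 6.04 and 6.05 at 1, 3, 6 and 12 months. Sfrp5 had its highest mean with tungsten at 3 months, 6.05 ± 0.03, and its lowest with cobalt in the same month, 5.28 ± 0.41. Its mean was above that of tantalum in 24 of the 31 comparisons, and in all 8 at 1 month, with a median difference of 0.14. Frzb was below tantalum in 8 of 8 metals at 1 month, by 0.23 to 0.42, and above it in 8 of 8 at 6 months, by 0.04 to 0.42. The tantalum mean itself went from 5.05 ± 0.40 at 1 month to 4.58 ± 0.31 at 6 months, and the comparisons of a month share its 3 arrays. Lead at 12 months was the metal farthest above tantalum for Frzb in that month, by 0.38 ± 0.22, with overlapping arrays.

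**Figure D2:**
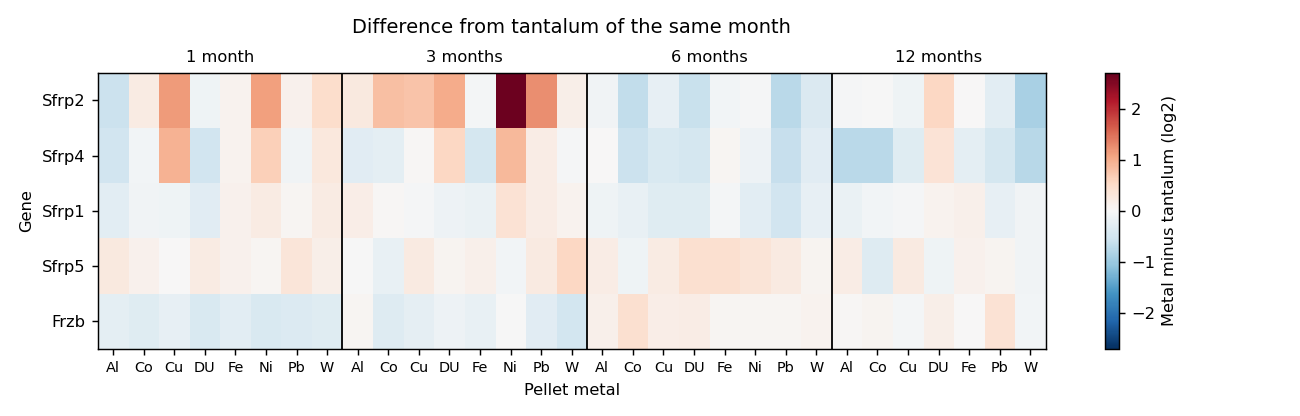
Difference of each metal's group mean from tantalum of the same month (log2, colour), for the 5 genes (rows) and the 31 comparisons (columns, by month). The darkest cell is Sfrp2 with nickel at 3 months, 2.65; Sfrp1, Sfrp5 and Frzb stay between -0.51 and 0.57.

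Across the 31 comparisons with tantalum, 1 of the 155 differences of the 5 genes passed an adjusted p of 0.05 in the fit over all probe sets: Sfrp2 with nickel at 3 months. Over all probe sets 0.443% of such differences passed. Since the genes were selected on these very differences, the count is a description and nothing is read from it. At an unadjusted p below 0.05, Sfrp2 was higher in 7 and lower in 2 comparisons, Sfrp4 higher in 2 and lower in 3, and Sfrp1, Sfrp5 and Frzb together higher in 2 and lower in 2. Nothing is read from these counts either. Of all 22954 probe sets, from 875 (depleted uranium at 3 months) to 4609 (lead at 1 month) had such a p in a comparison with tantalum. The metal's arrays lay wholly above or wholly below those of tantalum in 8 comparisons for Sfrp2, 5 for Sfrp4, 6 for Sfrp5 and 2 each for Sfrp1 and Frzb, against 13.2% of all probe sets and comparisons. Single arrays weigh on the count. Without tantalum replicate 3 at 1 month, 3 differences passed, with Sfrp2 at 1.60 for copper and 1.57 for nickel. Without tantalum replicate 3 at 3 months, 3 passed, with Sfrp2 at 1.66 for lead and 1.21 for cobalt. Without copper replicate 2 at 1 month, 3 passed, with copper at 1.58 for Sfrp2 and 1.42 for Sfrp4. Sfrp2 with nickel at 3 months kept between 2.39 and 3.04 when any 1 of its 6 arrays was left out.

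Markers of connective tissue cells moved with nickel at 3 months. Of 10 fibroblast markers, 5 rose and none fell against tantalum, with a median difference of 0.68 against -0.02 over all probe sets, and the comparison called 3.42% of all probe sets. The 5, named after their values were seen, were Lum, a collagen-binding proteoglycan, at 1.45 ± 0.24, the fibrillar collagen chains Col3a1, Col1a1 and Col1a2 at 1.09 ± 0.23, 0.92 ± 0.25 and 0.81 ± 0.24, and Mfap5, a microfibril protein, at 0.76 ± 0.18. The summed linear level of the 10 markers ran from 12623 to 14080 on the nickel arrays and from 7344 to 9346 on the tantalum arrays. Nickel was not alone in this: lead, at 9959 to 12908, and depleted uranium, at 10842 to 12297, also lay wholly above tantalum at 3 months. Cobalt, at 8042 to 12399, overlapped it. The 8 macrophage markers had a median difference of 0.88, and 7 of them rose. Their summed level ran from 1833 to 2365 with nickel and from 1106 to 1377 with tantalum. With cobalt at 3 months it ran from 2215 to 3200, where Sfrp2 and Sfrp4 differed from tantalum by 0.82 ± 0.34 and -0.27 ± 0.34. Of 6 myogenic cell markers 2 rose, and the list's median difference was 0.39. None of the 8 muscle fibre markers passed in limma, 0 had an unadjusted p below 0.05, and their median difference was -0.06. The endothelial, tendon, adipocyte and pericyte and smooth muscle lists had no marker past the threshold of limma's test, with medians of 0.09, 0.18, 0.34 and 0.30, and 0, 0, 1 and 2 markers at an unadjusted p below 0.05. All fibroblast markers were above the control median on every array. The part of these cells in the Sfrp2 and Sfrp4 differences was not tested.

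The same lists at 1 month showed smaller shifts beside the higher Sfrp2 and Sfrp4. With copper the fibroblast list had a median difference from tantalum of 0.44, with 1 of 10 higher, Lum at 1.20 ± 0.24, again named after its value was seen, in a comparison that called 0.322% of all probe sets. The macrophage list had a median of 0.45, with 0 of 8 past the threshold of limma's test and 3 at an unadjusted p below 0.05. With nickel, where 0.797% of all probe sets were called, the medians were 0.36 and 0.65, with 0 of 10 and 0 of 8 past the threshold in limma, and 4 and 6 at an unadjusted p below 0.05. The summed fibroblast level was 14470 to 25415 with copper, 17852 to 18823 with nickel and 10835 to 20759 with tantalum, so the tantalum arrays spanned much of the range of the others.

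In most metals, the control tantalum included, the means of Sfrp2 and Sfrp4 were lower at the later months than at 1 month. Each month was a different set of rats, and the rats of later months were older. Time since implantation, age and cohort therefore cannot be told apart, here and in every comparison with 1 month below. The mean of Sfrp2 was below its 1-month value in 22 of 26 comparisons, with a median of -0.92, and that of Sfrp4 in 24 of 26, with a median of -0.95. Copper and tungsten had the largest differences. The Sfrp4 arrays read 10.17, 8.52 and 9.76 with copper at 1 month and 7.26, 7.51 and 7.41 at 12 months, a difference of -2.09 ± 0.34. The Sfrp2 arrays of copper read 9.21, 7.86 and 9.16 at 1 month and 6.41, 6.31 and 7.31 at 12 months, a difference of -2.07 ± 0.34 or 4.18-fold lower. The 2 groups did not overlap for either gene.

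Tungsten ended lowest, with differences from 1 month of -2.16 ± 0.34 for Sfrp2 and -1.86 ± 0.34 for Sfrp4 at 12 months, 4.48-fold and 3.64-fold lower. In tantalum the differences at 12 months were -0.82 ± 0.34 for Sfrp2, with overlapping arrays, and -0.82 ± 0.34 for Sfrp4, without overlap. Depleted uranium ended close to its 1-month means, with differences within their SE: -0.15 ± 0.34 for Sfrp2 and 0.06 ± 0.34 for Sfrp4 at 12 months, after -0.90 ± 0.34 and -0.77 ± 0.34 at 6 months. In nickel Sfrp2 was still high at 3 months and low at 6. Its differences from 1 month were 0.60 ± 0.34 and -1.54 ± 0.34 in these months, and at 6 months the arrays read 6.88, 6.76 and 7.87. Aluminum, which began low, differed in Sfrp2 by -0.10 ± 0.34, 0.07 ± 0.34 and -0.28 ± 0.34 at 3, 6 and 12 months, while its Sfrp4 differed by -1.04 ± 0.34 at 12 months.

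**Figure D3:**
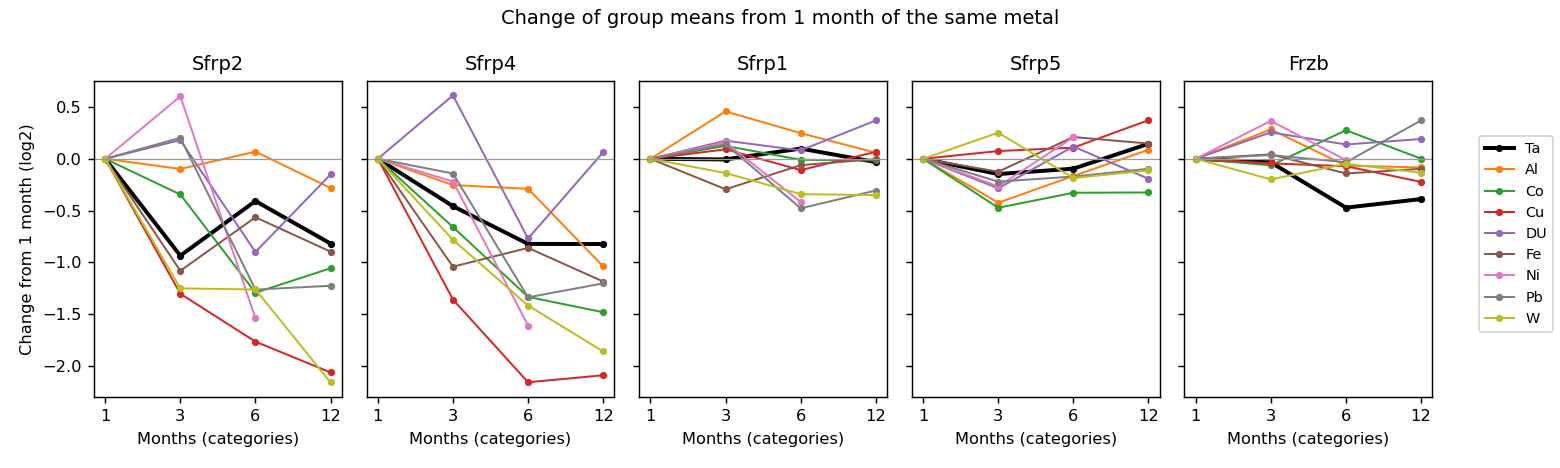
Change of each group mean from the 1-month mean of the same metal (log2), against months drawn as evenly spaced categories, with 1 line per metal and tantalum in black. The lowest changes are -2.16 for Sfrp2 (tungsten, 12 months) and -2.16 for Sfrp4 (copper, 6 months), while Sfrp1, Sfrp5 and Frzb stay between -0.48 and 0.46 at all months.

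Of the 130 differences of the 5 genes from 1 month, 22 passed the adjusted threshold, 11 for Sfrp2 and 11 for Sfrp4, and all 22 were lower. Over all probe sets 2.37% of such differences passed as lower and 1.75% as higher. These counts too come from the contrasts on which the genes were selected, and nothing is read from them. The comparisons of a metal share its 1-month arrays. For Sfrp1, Sfrp5 and Frzb 0 of 26 each passed in limma, and at an unadjusted p below 0.05 Sfrp1 was lower in 2 and higher in 1, and Sfrp5 and Frzb lower in 1 each. Of all 22954 probe sets, from 1915 (nickel at 3 months) to 5923 (tungsten at 12 months) had such a p in a comparison with 1 month. The later arrays lay wholly below those of 1 month in 14 comparisons for Sfrp2, 17 for Sfrp4, 3 for Sfrp1, 2 for Sfrp5 and 0 for Frzb, against 11.2% of all probe sets and comparisons.

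Several fibroblast markers, the collagen chains most, were lower over the same months. At 12 months against 1 month, 6 of 10 passed as lower in tantalum, 8 in tungsten and 7 in copper, with medians of -0.76, -1.14 and -1.21, and none passed as higher. In depleted uranium 4 of 10 passed as lower, with a median of -0.37. The share of all probe sets called in these comparisons, either way, was 7.85% in tantalum, 11.9% in tungsten, 6.79% in copper and 6.19% in depleted uranium. Col1a1, named after its values were seen, had the largest difference of the 10 in each. It was -2.43 ± 0.25 in tantalum, -2.69 ± 0.25 in tungsten, -2.86 ± 0.25 in copper and -1.95 ± 0.25 in depleted uranium. Pdgfra, Dpp4, Pi16 and Dcn did not pass in tantalum, at -0.25, -0.02, -0.13 and -0.08, or in depleted uranium, at -0.18, 0.17, 0.07 and -0.11. Pdgfra passed as lower in tungsten and copper and Dcn in tungsten, while Dpp4 and Pi16 passed in none of the 4 metals. The summed level of the list lay between 10835 and 20759 on the tantalum arrays at 1 month and between 6960 and 7452 on those at 12 months. The median of the 8 macrophage markers was -0.22 in tantalum, where 0 of 8 passed in limma and 2 had an unadjusted p below 0.05, -0.62 in tungsten, where 3 were lower, and -0.99 in copper, where 5 were lower. In depleted uranium it was -0.06, with 0 of 8 past the threshold in limma and 1 at an unadjusted p below 0.05, and the summed level ran from 953 to 1168 at 1 month and from 1063 to 1226 at 12 months. Endothelial markers were lower as well, with 3 of 6 in tantalum, 5 in tungsten, 4 in copper and 2 in depleted uranium. Tendon markers were lower in 1 of 5 in tantalum, 3 in tungsten, 0 in copper by limma (1 at an unadjusted p below 0.05) and 2 in depleted uranium, and pericyte and smooth muscle markers in 1, 4, 1 and 2 of 5. The muscle fibre list had medians from -0.11 to 0.05 in these 4 metals, with 0 of 8 past the threshold in limma and at most 1 at an unadjusted p below 0.05. The part of the number of such cells in the course of Sfrp2 and Sfrp4 was not tested.

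The arrays of a group offer a comparison that the choice of the genes did not use, since each array's deviation from its own group mean carries no difference between groups. Over the arrays of all 35 groups, Sfrp2 and Sfrp4 deviated together, with Pearson's r = 0.739 and Spearman's rho = 0.739. The permutation test, which shuffled arrays within groups 100000 times and was two-sided, gave p = 1e-05 for both, the smallest it can give, and an adjusted p of 8.75e-05 for r and 7e-05 for rho over the 35 relations computed. The sign was the same in 30 of 35 groups, and r was 0.706 without the 2 arrays farthest from the median of Sfrp2. An array high in one gene was thus usually high in the other. The test treats the groups as independent, but at 6 months and in most comparisons at 12 months arrays with the same replicate number deviated together across groups, so its p-values may be too small and the counts of signs are not over independent groups. With the replicate number of each month removed, r was 0.767. Over the 54 arrays of 1 and 3 months alone, where the numbers paired no groups, r was 0.837 with an adjusted permutation p of 8.75e-05, a check chosen after the data were seen. Sfrp1 went with both, but less closely, at r = 0.424 with Sfrp2 and r = 0.443 with Sfrp4 (rho = 0.385 and 0.409; adjusted permutation p = 0.00165 and 0.00214 for r). Each of these 2 relations had the same sign in 25 of 35 groups. At 1 and 3 months alone r was 0.416 and 0.469, with adjusted permutation p = 0.1 and 0.0384, so the relation to Sfrp2 did not pass there. Frzb and Sfrp5 showed no relation past the threshold with any other of the 5 genes, with r between -0.14 and 0.13.

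Deviations of Sfrp2 and Sfrp4 also went with the mean of the 10 fibroblast markers. For Sfrp4 r was 0.808 and rho 0.802, with the same sign in 34 of 35 groups, and for Sfrp2 r was 0.764 and rho 0.752, with the same sign in 33 (adjusted permutation p = 8.75e-05 for each r). Without the 2 arrays farthest from the median, r was 0.808 and 0.730, and at 1 and 3 months alone it was 0.882 and 0.829 (adjusted permutation p = 8.75e-05 for each). With the macrophage list r was 0.633 for Sfrp4 and 0.596 for Sfrp2 (rho = 0.649 and 0.581; adjusted permutation p = 8.75e-05 and 0.00014), and at 1 and 3 months alone 0.736 and 0.681 (adjusted permutation p = 8.75e-05 and 0.00021). Sfrp1 had r = 0.318 with the fibroblast list and r = 0.364 with the macrophage list (rho = 0.307 and 0.353; adjusted permutation p = 0.0384 and 0.0126). Neither passed at 1 and 3 months alone, at r = 0.359 and 0.430 (adjusted permutation p = 0.191 and 0.0804). The muscle fibre, tendon and adipocyte lists showed no relation with Sfrp1, Sfrp2 or Sfrp4 past the threshold.

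Sfrp5 followed other lists than Sfrp2 and Sfrp4. Its largest correlation was with the 2 Schwann cell markers measured, r = 0.633 and rho = 0.642, a relation outside the 35 and given without a test. Among the 35, its deviations went with the mean of 4 adipocyte markers at r = 0.462 and rho = 0.491 (adjusted permutation p = 0.000175 for r), with the same sign in 28 of 35 groups and r = 0.453 without the 2 arrays farthest from its median. At 1 and 3 months alone r was 0.293 with an adjusted permutation p of 0.255, so that relation did not pass without the later months. With the fibroblast list its r was -0.005. The summed adipocyte level ran from 361 on an iron array at 3 months to 3040 on a depleted uranium array at 12 months. Frzb passed with no list by r. By rho its relation to the muscle fibre list passed, at -0.285 with an adjusted permutation p of 0.0341, while r was -0.244 with an adjusted permutation p of 0.0855.

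**Figure D4:**
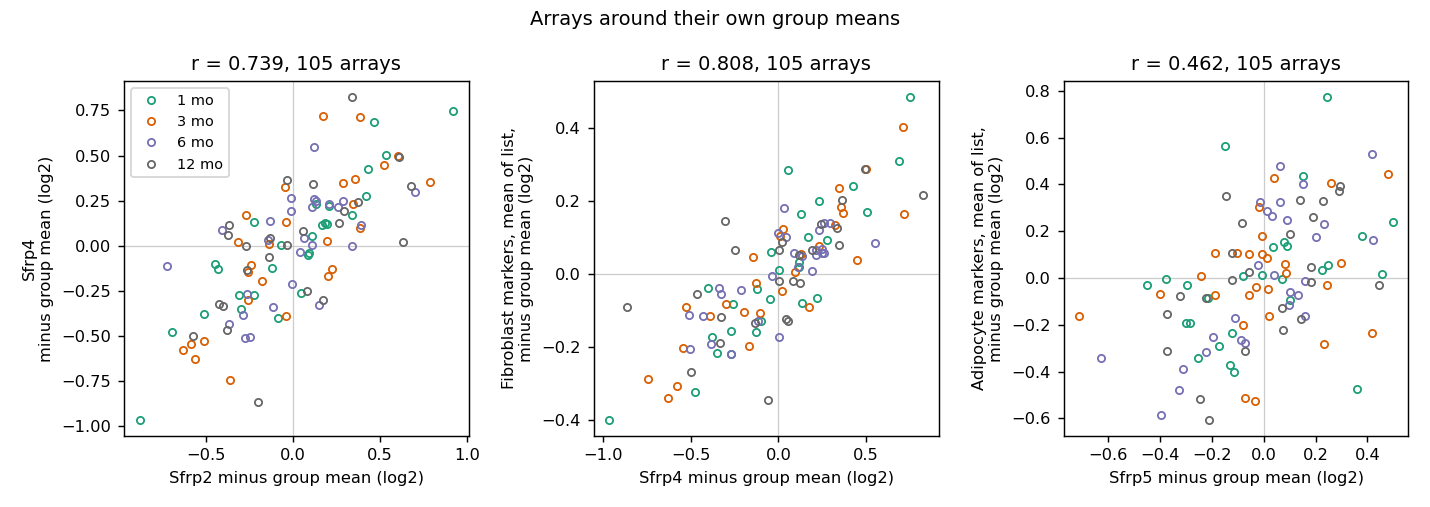
Each array's deviation from its group mean (log2) for Sfrp4 against Sfrp2 (left), the mean of the fibroblast markers against Sfrp4 (middle) and the mean of the adipocyte markers against Sfrp5 (right), all arrays coloured by month. The points follow a rising band in all 3 panels, with r = 0.739, 0.808 and 0.462.

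Over the 35 group means, the genes most like each member were found by Pearson's r among 14850 named genes, as a description with no test, since the groups share metals and months. Sfrp2 and Sfrp4 had r = 0.895 with each other. The closest to Sfrp2 were Pdpn, the membrane glycoprotein podoplanin, at r = 0.932, Ext1, a heparan sulfate polymerase, at 0.919, and Thbs2, the matricellular protein thrombospondin 2, at 0.918. The closest to Sfrp4 were Timp2, an inhibitor of matrix metalloproteinases, at 0.948, Col14a1, a fibril-associated collagen chain, at 0.946, and Tnxa-ps1 at 0.946. In all, 7 genes reached an r above 0.9 with Sfrp2 and 34 with Sfrp4. The other members had no gene above 0.9. Their closest were Il1rl1, the interleukin 33 receptor, at 0.679 for Sfrp1, Slc1a1, a glutamate transporter, at 0.624 for Frzb, and Zbtb12 at 0.742 for Sfrp5. Next came Myf5, a myogenic transcription factor, and Smim14 for Sfrp1, both at 0.656, then Hspb6 and Dpf2 for Frzb at 0.579 and 0.560, and Vipr1 and Cmtm5 for Sfrp5 at 0.701 and 0.676.

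The rest of the pathway was followed through 8 lists of 90 genes, 76 of them measured. A list of procollagen C-proteinases and their enhancers is counted among them. Against tantalum, 7 differences were higher and 4 lower of 2356 tests over the 31 comparisons, 0.467% against 0.443% of all probe sets. They fell in 3 comparisons, and the comparisons of a month share tantalum arrays. With nickel at 3 months 4 of 76 rose and none fell. That comparison called 3.42% of all probe sets either way, with 647 of the 22954 higher and 137 lower, and nothing is read from the count. The genes were the receptor Fzd1 (0.51 ± 0.14, adjusted p = 0.0262 by limma) and the Wnt target Ccn4, also called WISP1 (0.76 ± 0.20, adjusted p = 0.0106). With them rose Bmp1 (0.50 ± 0.13, adjusted p = 0.012) and Pcolce, a glycoprotein that enhances Bmp1's cleavage of procollagen (0.50 ± 0.14, adjusted p = 0.0245). The median differences of the lists of ligands, receptors, antagonists and Wnt target genes in that comparison were -0.03, 0.12, 0.14 and 0.14. None of the 9 other extracellular antagonists passed in limma, 0 had an unadjusted p below 0.05, and their differences ran from -0.19 to 0.19. At an unadjusted p below 0.05 in limma, 13 of the 76 pathway genes passed, as did 3111 of all 22954 probe sets. The number past the adjusted threshold moved with single arrays. It was 1 without nickel replicate 1, 2 without nickel replicate 2, and 0 without tantalum replicate 2, when 9 of 76 had an unadjusted p below 0.05.

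With cobalt at 3 months 2 of 76 fell and none rose. That comparison called 5.46% of all probe sets either way, with 135 of the 22954 lower and 1119 higher. The 2 genes were the receptor Fzd7 (-0.35 ± 0.11, adjusted p = 0.0339 by limma) and Pygo1, a nuclear cofactor of beta-catenin (-0.53 ± 0.14, adjusted p = 0.00598). Without tantalum replicate 1 the number was 0, with 7 of 76 at an unadjusted p below 0.05, and without any 1 of cobalt replicates 1 and 3 or tantalum replicates 2 and 3 it was 1. With lead at 1 month 3 ligands rose, Wnt4 (0.53 ± 0.12, adjusted p = 0.0117), Wnt8b (0.76 ± 0.18, adjusted p = 0.0137) and Wnt10a (0.47 ± 0.14, adjusted p = 0.0458), and 2 genes fell, Fzd4 (-0.68 ± 0.17, adjusted p = 0.0193) and Pygo1 (-0.52 ± 0.14, adjusted p = 0.0232). That comparison called 3.02% of all probe sets. Without lead replicate 2 the number was 0, with 9 of 76 at an unadjusted p below 0.05, and without tantalum replicate 2 or 3 it was 1 or 3. Sfrp2 differed from tantalum by 0.13 ± 0.34 in that lead muscle and Sfrp4 by -0.10 ± 0.34. The difference from tantalum of none of these 10 genes changed over the months past an adjusted p of 0.05 in a moderated F test, the nearest being Pygo1 with cobalt at adjusted p = 0.0625.

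Against 1 month, 82 pathway differences were lower and 18 higher of 1976, 4.15% and 0.911% of the tests, against 2.37% lower and 1.75% higher over all probe sets. The procollagen group held the most, 35 of the 82 lower, or 33.7% of its 104 tests. Since that group is counted in it, the 4.15% is not a share of Wnt signalling genes alone. Of the other lists, only the receptors, at 6.67%, and the Wnt target genes, at 4.33%, had a lower share above that of all probe sets. The lower share of every remaining list was below it, with 0.641% for the R-spondin axis and 0 for Wnt secretion. Pcolce was lower in 20 of 26 comparisons and its mean was below 1 month in all 26, from -0.15 to -1.21. Bmp1 was lower in 15 of 26. With copper at 12 months, where 6.79% of all probe sets were called, Pcolce differed by -1.21 ± 0.14, adjusted p = 8.71e-10 and Bmp1 by -0.71 ± 0.13, adjusted p = 5.77e-05 in limma. With tantalum at 12 months, where 7.85% were called, Pcolce differed by -1.01 ± 0.14, adjusted p = 3.17e-07 and Bmp1 by -0.73 ± 0.13, adjusted p = 5.32e-05 in limma. Both genes fell in the control as in copper. These 2 genes made up all 35 lower differences of the group. The related proteases Tll1 and Tll2 had medians of -0.33 and -0.09 over the 26 comparisons, with means below 1 month in 25 and 16 of them.

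Among the receptors 26 of 390 differences were lower, 6.67% against 2.37% of all probe sets, and none higher. Fzd6 was lower in 10 comparisons, most with copper at 6 months (-0.73 ± 0.15, adjusted p = 0.000479 by limma), and its mean was below 1 month in all 26. Fzd4 was lower in 8, most with tungsten at 6 months (-1.04 ± 0.17, adjusted p = 2.13e-05), and also in tantalum at 12 months (-0.95 ± 0.17, adjusted p = 8.58e-05). Fzd2 was lower in 3, Fzd1 and the receptor tyrosine kinase Ror1 in 2 each, and Fzd9 in 1. The Ror1 difference with copper at 3 months was -0.94 ± 0.18, adjusted p = 0.000665. With tungsten at 12 months, where 11.9% of all probe sets were called, Fzd4, Fzd6 and Fzd2 were all lower, at -0.81 ± 0.17, -0.45 ± 0.15 and -0.44 ± 0.15.

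The ligands had calls both ways, with 5 differences higher and 3 lower of 442. These were 1.13% and 0.679% of the tests, below the 1.75% and 2.37% of all probe sets. Wnt16 was higher at 12 months in tantalum (1.01 ± 0.29, adjusted p = 0.0175 by limma) and tungsten (0.88 ± 0.29, adjusted p = 0.0352). Wnt3 was higher at 12 months in aluminum (0.57 ± 0.14, adjusted p = 0.0128) and in tungsten, the latter with overlapping arrays. Wnt5a, a ligand known mainly for signalling without beta-catenin, was lower in cobalt at 3 months (-0.54 ± 0.14, adjusted p = 0.0075) and in depleted uranium at 12 months. The ligand transporter Wls was higher with lead at 3 months, at 0.55 ± 0.15 with overlapping arrays, and at 12 months, at 0.48 ± 0.15. These 2 higher differences of the Wnt secretion list were 3.85% of its 52 tests, above the 1.75% of all probe sets. Rnf43, a ligase that removes Frizzled from the cell surface, was higher in 4 comparisons, most with copper at 12 months (0.63 ± 0.15, adjusted p = 0.00339). Its list, the R-spondin axis, had 5 of 156 differences higher, 3.21% against 1.75% of all probe sets.

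Of the other extracellular antagonists, 3 of 234 differences passed, all lower, 1.28% against 2.37% of all probe sets. Kremen1, a Dickkopf receptor, was lower with tungsten at 6 months (-0.67 ± 0.21, adjusted p = 0.0365 by limma). It was also lower with cobalt at 12 months (-0.68 ± 0.21, adjusted p = 0.0318), there with overlapping arrays. Sost, the gene of sclerostin, was lower with depleted uranium at 12 months (-0.56 ± 0.18, adjusted p = 0.0402). Inside the cell, 6 of 390 differences were higher and 5 lower, 1.54% and 1.28%, against 1.75% and 2.37% of all probe sets. Ctnnb1, which encodes beta-catenin, was lower with copper at 6 and 12 months, at -0.34 ± 0.11 and -0.34 ± 0.11. Pygo1 was higher in 5 comparisons, most with lead at 12 months (0.80 ± 0.14, adjusted p = 4.71e-05), and lower in 1, cobalt at 3 months (-0.52 ± 0.14, adjusted p = 0.00733). Among Wnt target genes 9 of 208 differences were lower, 4.33% against 2.37% of all probe sets, and none higher. The cell cycle gene Ccnd1 accounted for 6 of them, most with copper at 6 months (-0.80 ± 0.15, adjusted p = 0.000145 by limma). Myc was lower in tantalum at 6 and 12 months, at -0.96 ± 0.21 and -0.85 ± 0.21, and Ccn4 was lower in 1 comparison. Axin2, Nkd1, Nkd2, Sp5 and Tnfrsf19 passed in none, with medians over the 26 comparisons of 0.13, -0.07, -0.05, 0.04 and -0.17. The Axin2 mean was below 1 month in only 2 of the 26, and the Tnfrsf19 mean in 23.

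**Figure D5:**
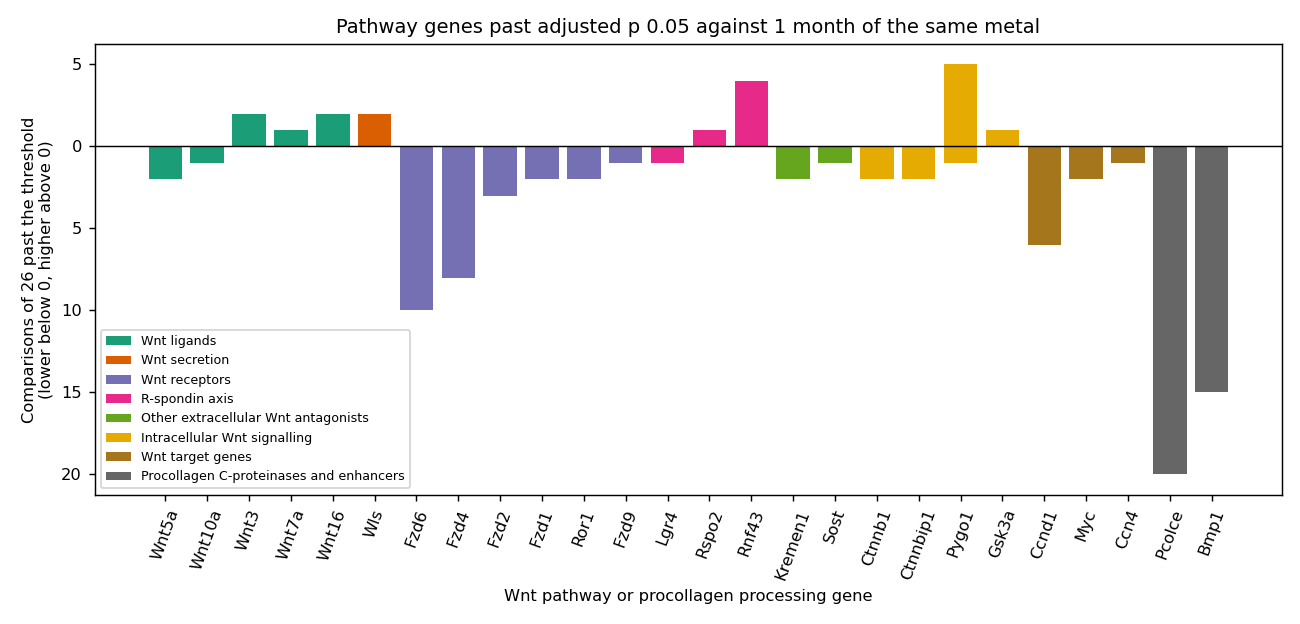
Number of the 26 comparisons with 1 month of the same metal in which each of 26 pathway genes passed an adjusted p of 0.05 (bars up for higher, down for lower), coloured by list. Pcolce with 20 and Bmp1 with 15 lower comparisons lead, followed by Fzd6 with 10 and Fzd4 with 8.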

How the data were processed

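The 5 genes, the pathway and marker lists and the tests were chosen with earlier results of these data known. The deposited values are log2 intensities, 1 per probe set and array, which the authors made by RMA with oligo under R 4.0.1, per the submitters' processing notes. Whether all arrays were normalized in 1 run, and the build of the array annotation, are not given in the sources used here. Array medians lay between 6.36 and 6.54, and each array's mean correlation with the others was at least 0.970. Precision is set by the number of arrays.

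Of 22977 probe sets, 23 controls were left out and 22954 tested. Symbols came from the platform annotation, updated by gene ID through RefSeq (GRCr8): 14855 probe sets had 1 symbol and 8099 none here. A gene on several probe sets was represented by the brightest. limma 3.58.1 (R 4.3.3) was fitted with 1 mean per group over the arrays of all 35 groups (70 residual degrees of freedom), with Benjamini-Hochberg adjustment over all probe sets of each comparison and a threshold of 0.05. The fit was tested on simulated data. The arrays are pools, so a p-value measures the spread between pools.

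Correlations used deviations from group means (Python 3.11.15, numpy 2.4.6, pandas 2.3.3, scipy 1.17.1; figures with matplotlib 3.10.9). Replicate numbers from the labels paired the arrays, by correlated deviations above 0.1 in every pair, in 0 of 8 comparisons with tantalum at 1 and at 3 months, in 8 of 8 at 6 months and in 5 of 7 at 12 months. Named pathway genes are those that passed, up to 4 per list and comparison with the smallest adjusted p, plus any that complete a count; the 3 genes most like each member are named, and markers are given as counts and medians except where said. Alternatives were a replicate block, the other metals as reference, array weights, a repeated quantile normalization, a variance trend with intensity, leaving out dim probe sets, separate fits, adjustment over each family of comparisons, and leaving out arrays.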

Additional observations from a re-analysis of the deposited data

Results flagged for a closer look

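In 9 pairs of comparisons all 3 arrays of one group moved one way from their reference and all 3 of the other the opposite way. Reference arrays were the same tantalum month or the same metal's 1-month group. Over all probe sets, the groups did not overlap in 13.2% of the differences from tantalum. The later arrays lay wholly below those of 1 month in 11.2% of the differences from 1 month. The pairs were sought among the secreted frizzled-related genes only, and the share of such pairs over all probe sets was not computed. Nothing is therefore read from the number of pairs. The difference between the 2 comparisons of a pair was not tested in any of them, and pairs that share arrays are not independent. The groups that enter were among those already known to be high or low.

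Sfrp2 was above tantalum at 3 months and below it at 6 months with depleted uranium, 2 differences that lay 1.61 apart on the log2 scale, and with lead, where they lay 1.99 apart. From 1 to 3 months Sfrp2 went up with nickel and down with copper, 1.91 apart, with iron, 1.69 apart, and with tungsten, 1.86 apart. Within nickel the 3-month and 6-month differences of Sfrp2 from 1 month lay 2.15 apart. Sfrp4 with depleted uranium was above its 1-month arrays at 3 months, which set it 1.66 from iron and 1.40 from tungsten in the same month, and 1.38 from depleted uranium itself at 6 months.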

How the results depend on the processing

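No result reversed its direction past the threshold under any alternative. Of the differences of the 5 genes from tantalum, 1 passed in the fit as reported, 4 with the other metals as reference and 3 with array weights. The 22 lower differences from 1 month numbered 17 to 22 under the alternatives, with 8 to 11 for Sfrp2 and 9 to 11 for Sfrp4. Leaving out 1 array gave 1 to 3 differences from tantalum, 18 to 23 lower differences from 1 month in all, 9 to 12 for Sfrp2 and 9 to 11 for Sfrp4. Without tantalum replicate 1 at 1 month, Sfrp2 in tantalum at 12 months passed at -1.17.

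Pathway counts moved more, and the cause was not tested. Against tantalum the 7 higher became 2 in fits of only the 6 arrays compared and 2 with adjustment over all comparisons together, and 3 to 9 without 1 array. The 4 lower became 15 with the replicate block, 7 with array weights, 1 with 6 arrays, 0 with adjustment over all comparisons, and 2 to 6 without 1 array. Against 1 month the 18 higher became 36 with the replicate block, 3 with 6 arrays and 15 to 23 without 1 array, and the 82 lower became 124, 25 and 71 to 86. Nickel at 3 months went from 4 to 8 with the block, 8 with array weights, 2 with 6 arrays, 0 with adjustment over all comparisons, and 0 to 4 without 1 array. Cobalt at 3 months went from 2 to 5 with the other metals as reference, 1 with 6 arrays, 0 with adjustment over all comparisons, and 0 to 2 without 1 array. Lead at 1 month went from 5 to 8 with the block, 0 with 6 arrays, 2 with adjustment over all comparisons, and 0 to 7 without 1 array. In the 15 comparisons with tantalum at 6 and 12 months, where numbers paired the arrays except for copper and depleted uranium at 12 months, 0 pathway and 0 member differences passed in limma with the block and without it, so pairing changed no call there. In the other comparisons with tantalum the arrays share only a number. Of the 35 relations within groups, 10 passed by Pearson's r, 11 by Spearman's rho and 6 over the arrays of 1 and 3 months alone, an alternative with fewer arrays that was chosen after seeing the data.

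Precision was limited by 3 arrays per group and by the low level of Frzb.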

Other observations

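The 5 remaining marker lists lay outside the family of 35 relations, and their correlations with the 5 genes within groups are given as values without a test. Beside that of Sfrp5 with the Schwann cell markers, given above, Frzb had r = 0.319 with the endothelial list, and Sfrp5 had r = 0.267 with the pericyte and smooth muscle list. The values of Sfrp2 and Sfrp4 with these lists ran from -0.142 to 0.165.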
